A study of Mus musculus with 9 samples.

Results

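Livers in which a YAP transgene had been switched on (YAP) were compared with wild type livers (WT). The comparison used the libraries titled YAP_1 to YAP_3 and WT_1 to WT_3, 6 of the 9 libraries of the series. All mice were C57BL/6. The genotype labels read wild type for WT and YAP transgenic for YAP. Every mouse, WT included, received an AAV8 vector with Cre under the ApoE/ATT1 promoter by intraperitoneal injection, and doxycycline in the drinking water at 30 mg per L for 14 days to induce YAP. The labels do not give the sex or age of the mice, the promoter that drives the YAP transgene, or whether each library came from a different animal, so the p-values cover no more than the spread among these libraries, which may be technical. The 3 libraries of YAP transgenic mice with a liver knockout of Lsd1 (gene Kdm1a) entered the estimate of spread and no comparison. The question was which programmes of the liver changed with YAP, beyond its best known target genes and the genes of liver zonation.

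YAP is a transcriptional co-activator that does not bind DNA itself. It acts mainly with the TEAD factors, and the kinases of the Hippo pathway hold it in the cytoplasm. In liver, active YAP is known to enlarge the organ and to move hepatocytes towards a bile duct and progenitor state. Hepatocytes, the main cells of the liver, make most plasma proteins, cholesterol, bile acids and lipoproteins, and break down amino acids and foreign compounds.

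RNA-seq reads that mapped uniquely and crossed annotated splice junctions of 1 gene were summed per gene. They are given as CPM, the reads of a gene as a share of all gene reads of its library, after scaling by the trimmed mean of M-values (TMM). Unique junction reads ranged from 7174989 to 8557006 per WT library and from 7877050 to 8729659 per YAP library. Replicate 3 of each group stood between replicates 1 and 2. Of 896 genes at least 2-fold apart in WT_1 and WT_2, 99.2% lay between them in WT_3, and of 358 such genes in YAP, 98.04% lay between them in YAP_3. WT_3 was closest to a mix of 47.1% WT_1 and 52.9% WT_2, from which it deviated by 1.31 times the squared sampling noise, against 14.99 times for WT_1 from WT_2. The corresponding mix for YAP_3 was 47.3% and 52.7%, with a deviation of 2.33 times against 8.69 times. The fits treated the libraries as independent, so their adjusted p-values are too small to the extent that replicate 3 is not, and why replicate 3 lies there was not tested. The counts of leading gene groups are therefore also given without replicate 3 in any group. All such counts come from DESeq2, a different test that was added after the data were seen. On all libraries it passed more genes (2508 against 1901). Without replicate 3 it called 1.68% of all genes tested as rises and 2.65% as falls. By edgeR's quasi-likelihood test no gene passed without replicate 3, so these counts do not show that the edgeR calls held. Reads of Yap1 rose (19.8, 19.3 and 17.4 CPM in WT and 78.6, 66.8 and 78.8 CPM in YAP; log2 fold change 1.99, SE 0.17, adjusted p = 0.000324 by edgeR's quasi-likelihood test with Benjamini-Hochberg adjustment), while the knockout target Kdm1a did not pass (log2 fold change 0.33, SE 0.25, adjusted p = 0.381). Junction reads do not tell transcripts of a transgene from those of the mouse gene, so the Yap1 values do not measure the transgene alone. Xist, the RNA of the inactive X chromosome, had 0 or 1 read in each library, and the Y-linked genes Ddx3y, Uty, Kdm5d and Eif2s3y were read in each.

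Genes of sterol synthesis, amino acid breakdown, lipid transport, detoxification and plasma proteins were prominent among those that fell in YAP liver, and genes of epithelial structure, cilia and matrix among those that rose; the counts of each group follow below. Of 10897 genes tested, 1901 (17.4%) passed the threshold of 0.05 on the adjusted p of edgeR's quasi-likelihood test. Of all genes tested, 811 (7.44%) rose and 1090 (10%) fell. At least 2-fold, 485 (4.45%) rose and 535 (4.91%) fell. The number rested on single libraries: it was 748 without WT_3, 764 without YAP_3, 989 without YAP_1, 1112 without WT_1 and 1196 without YAP_2. Genes that passed in the fit of all libraries and in each of the 9 fits that left out 1 library are called stable here; they were 660 (6.06%), of which 253 (2.32% of genes tested) rose and 407 (3.73%) fell. Without replicate 3 in every group, edgeR passed 0 of 10964 genes, with 1476 at an unadjusted p under 0.05, whereas DESeq2 passed 474 (4.32%), of which 184 (1.68% of genes tested) rose and 290 (2.65%) fell. All 474 were among the 1901. Of the 660 stable genes, 410 passed DESeq2 without replicate 3. Scaling mattered for the direction. The median of all genes was 0.00 on the log2 scale after TMM and 0.31 higher in YAP when scaled by library size alone, and the share of passing genes that rose went from 42.7% to 75.9%. For each passing gene named below, all YAP libraries lay on 1 side of all WT libraries, which was so for 44.3% of all genes tested, with YAP higher in 21.5% and lower in 22.8%. At an unadjusted p under 0.05 were 3752 of the 10897 genes tested, in either direction. DESeq2 on all libraries called 1165 of 10897 as rises and 1343 as falls. The fit of the 6 libraries compared called 1264 of 10655 as rises and 1376 as falls. With library size alone 1932 of 10897 rose and 613 fell. Changes are given relative to the median gene. Among the groups described below, scaling by library size alone turned the balance of rises and falls for metal handling, the TGF-beta and BMP pathway and the proteasome. Balance and sign of the median both turned for endothelial markers, complex lipid enzymes, gluconeogenesis and glycogen genes, and heparan sulphate proteoglycans. The sign of the median turned for complement, hepatocyte transcription factors, clock genes, the Wnt list, extracellular matrix and one-carbon and methionine enzymes. It also turned for insulin and IGF signalling and for Xist with the Y-linked genes. In whole liver, fewer cells of a type and less RNA per cell cannot be told apart.

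Several of the largest rises were genes hardly read in WT. Krt4, an epithelial keratin (chromosome 15, 101918535 to 101924735 in GRCm38), had 0 reads in WT and 474 reads in YAP, with 0, 0 and 0 CPM in WT and 15.8, 24.5 and 16.3 CPM in YAP, which is at least 128-fold higher against a floor of 3 reads over the WT group. Folh1, which encodes a glutamate carboxypeptidase, had 0 CPM in each WT library and 23.6, 12.1 and 18.8 CPM in YAP, at least 122-fold higher. Kcnh7, a potassium channel gene, was at least 73.7-fold higher on the same floor. Floors and read ratios cover counting error only. Fam83b, which encodes a scaffold protein of growth factor signalling, had 1 read in WT against 878 in YAP, and its 3 YAP libraries differed among themselves, with 58.1, 12.2 and 36.5 CPM. Eprn had a read ratio of 101 (95% counting interval 34.4 to 493), and Pak6, a p21-activated kinase, a ratio of 90.8 (95% counting interval 24.8 to 754). None of these 6 genes overlapped between the groups.

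Other leading rises had measurable levels in WT. Tmeff2, a transmembrane protein with a follistatin-like part, had 0.813, 0.749 and 0.54 CPM in WT and 38.1, 21.9 and 28.2 CPM in YAP (log2 fold change 5.37, SE 0.77, adjusted p = 0.00308). Sftpd, the collectin surfactant protein D, had 0.65, 1.8 and 1.76 CPM in WT and 55.5, 63.3 and 59.1 CPM in YAP, a 41.2-fold difference (adjusted p = 0.00587). Tinag, a basement membrane antigen of the kidney tubule, had 0.163, 2.4 and 1.89 CPM in WT and 35.7, 43.6 and 47.1 CPM in YAP (log2 fold change 4.78, SE 0.74, adjusted p = 0.00399). In all 3 genes each YAP library was more than 10 times above the highest WT library. Among the rises with the smallest p, Klhl13, an adaptor of a cullin ubiquitin ligase, was 8.58-fold higher, Sh2d4a, an SH2 adaptor, 6.84-fold, and Pawr, a pro-apoptotic regulator, 4.28-fold. Pde7a, a cyclic AMP phosphodiesterase, rose from 5.53, 7.34 and 7.29 CPM in WT to 28.1, 32.7 and 34.1 CPM in YAP. Rras2, a Ras family GTPase, had 10.9, 12 and 12.7 CPM in WT and 34.3, 32.7 and 41.2 CPM in YAP (log2 fold change 1.60, SE 0.14, adjusted p = 0.000369). Plscr2, a scramblase gene, and Otud7b, a deubiquitinase, rose by 2.11 and 1.47 on the log2 scale. H2-Q1, a class I gene with near-identical neighbours, rose by 4.75 on the log2 scale, which is uncertain because reads can be assigned to the wrong copy; the same holds below for genes of the Mup, Serpina1, Cyp2, Cyp3a, Cyp4a, Ugt, Sult and Slc22a families.

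Promoters of leading rises are shown because TEAD factors, through which YAP acts, recognise the letters GGAATG. The windows are the 250 bases before the transcript start, taken from RefSeq (GRCm38.p6), and were searched on both strands, so CATTCC marks the reverse strand. The letters occurred in 12.6% of all 32851 windows, in 10.6% of the windows of tested genes, in 12.5% for genes that rose, 11.3% for genes that fell and 10.3% for genes that did not pass. Among stable rises 42 of 252 windows (16.7%) had them. For the AP-1 letters TGANTCA the shares were 5.53% in genes that rose, 5.15% in genes that fell and 4.54% in genes that did not pass. The hepatocyte factor letters CAAAGTCCA (HNF4) were in 0.706% of windows of genes that rose, 0.919% of those that fell and 0.357% of those that did not pass, on either strand. Of the tested genes, 8683 had a window. Printed are the first 5 stable rises in order of p whose window has GGAATG on either strand and overlaps no annotated exon; the exon condition, and with it the choice of Slc22a27, Ogn and Ahnak, was added after values were seen. Capitals mark the matches. A match describes the letters only and shows no binding.
Ajuba: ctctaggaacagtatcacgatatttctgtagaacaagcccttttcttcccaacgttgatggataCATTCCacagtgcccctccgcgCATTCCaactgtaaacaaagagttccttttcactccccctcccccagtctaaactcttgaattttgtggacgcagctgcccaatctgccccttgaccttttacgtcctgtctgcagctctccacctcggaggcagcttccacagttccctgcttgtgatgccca
Abcb1a: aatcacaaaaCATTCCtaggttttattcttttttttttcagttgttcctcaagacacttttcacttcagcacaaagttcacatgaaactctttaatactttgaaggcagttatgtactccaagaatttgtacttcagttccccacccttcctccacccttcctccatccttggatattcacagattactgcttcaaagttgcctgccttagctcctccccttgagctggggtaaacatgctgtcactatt
Slc22a27: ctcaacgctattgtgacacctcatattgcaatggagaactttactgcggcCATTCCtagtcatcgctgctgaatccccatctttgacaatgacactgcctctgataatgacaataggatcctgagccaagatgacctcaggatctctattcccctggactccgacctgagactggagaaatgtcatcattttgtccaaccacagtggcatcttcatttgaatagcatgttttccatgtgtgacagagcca
Ogn: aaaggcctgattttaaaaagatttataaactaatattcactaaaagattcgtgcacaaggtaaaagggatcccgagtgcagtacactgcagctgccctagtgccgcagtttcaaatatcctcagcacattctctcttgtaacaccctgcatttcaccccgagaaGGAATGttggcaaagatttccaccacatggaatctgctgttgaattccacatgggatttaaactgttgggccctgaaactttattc
Ahnak: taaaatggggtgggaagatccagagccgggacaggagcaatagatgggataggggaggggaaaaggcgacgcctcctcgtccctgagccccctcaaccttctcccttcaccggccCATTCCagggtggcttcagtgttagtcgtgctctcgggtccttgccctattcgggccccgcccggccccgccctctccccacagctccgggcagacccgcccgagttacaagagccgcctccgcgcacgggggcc

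Ajuba is a LIM protein that inhibits Hippo kinases and is itself among the well known YAP-linked genes. Its window (chr14:54577662-54577911, minus strand) had 2 matches, and its level was 6.18, 5.99 and 5.54 CPM in WT and 27.5, 29 and 30.3 CPM in YAP. Abcb1a, the drug exporter P-glycoprotein (window chr5:8566841-8567090, plus strand), had 8.94, 19.3 and 13.8 CPM in WT and 158, 102 and 136 CPM in YAP (log2 fold change 3.23, SE 0.29, adjusted p = 0.000433). The organic anion transporter gene Slc22a27 (window chr19:7966028-7966277, minus strand) had 0.163, 0.15 and 1.22 CPM in WT and 13.7, 16.6 and 12 CPM in YAP. Ogn, the small matrix proteoglycan osteoglycin (window chr13:49607765-49608014, plus strand), had 2.11, 4.19 and 3.51 CPM in WT and 16.7, 12.3 and 13.3 CPM in YAP. Ahnak, a large scaffold protein (window chr19:8989034-8989283, plus strand), had 4.55, 4.94 and 4.19 CPM in WT and 43.7, 20.4 and 24 CPM in YAP. In each of the 5 genes all YAP libraries were above all WT libraries, which was so for 21.5% of all genes tested.

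The leading falls were liver enzymes and secreted proteins. Cyp7b1, the oxysterol 7-alpha-hydroxylase of bile acid synthesis, had 362, 106 and 225 CPM in WT and 2.46, 4.88 and 4.62 CPM in YAP (log2 fold change -5.85, SE 0.65, adjusted p = 0.000971). Slc1a2, a glutamate transporter, had 161, 126 and 141 CPM in WT and 0.614, 1.28 and 1.58 CPM in YAP (log2 fold change -6.92, SE 1.03, adjusted p = 0.00355). Gabbr2, a subunit of the GABA-B receptor, had 19.7, 18.4 and 20.9 CPM in WT and 0.614, 1.4 and 0.73 CPM in YAP, 21.1-fold lower. In these 3 genes the highest YAP library was at least 10 times below the lowest WT library. Rnase4, a secreted ribonuclease (chromosome 14, 51091077 to 51106151 in GRCm38), fell by 5.08 on the log2 scale, and Ang, angiogenin, which shares promoters and leader exons with it, also fell. Igfbp2, a binding protein of insulin-like growth factors, had 102, 56.5 and 81.5 CPM in WT and 5.16, 6.16 and 3.41 CPM in YAP (log2 fold change -4.02, SE 0.31, adjusted p = 0.00024). Lama3, the laminin alpha 3 chain, had 31.7, 40.1 and 40.8 CPM in WT and 2.33, 3.95 and 3.16 CPM in YAP (log2 fold change -3.57, SE 0.24, adjusted p = 0.000216). Agmat, agmatinase, and Spp2, a secreted phosphoprotein, fell by 1.91 and 1.64 on the log2 scale with SEs of 0.12 and 0.12. Adgrf1, an adhesion G protein-coupled receptor, was uneven among WT libraries, with 44.5, 8.84 and 23.2 CPM in WT and 0.737, 0 and 0.365 CPM in YAP. Sult5a1, a sulphotransferase, had 161 reads in WT and 0 in YAP, at least 66.2-fold lower.

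**Figure D1:**
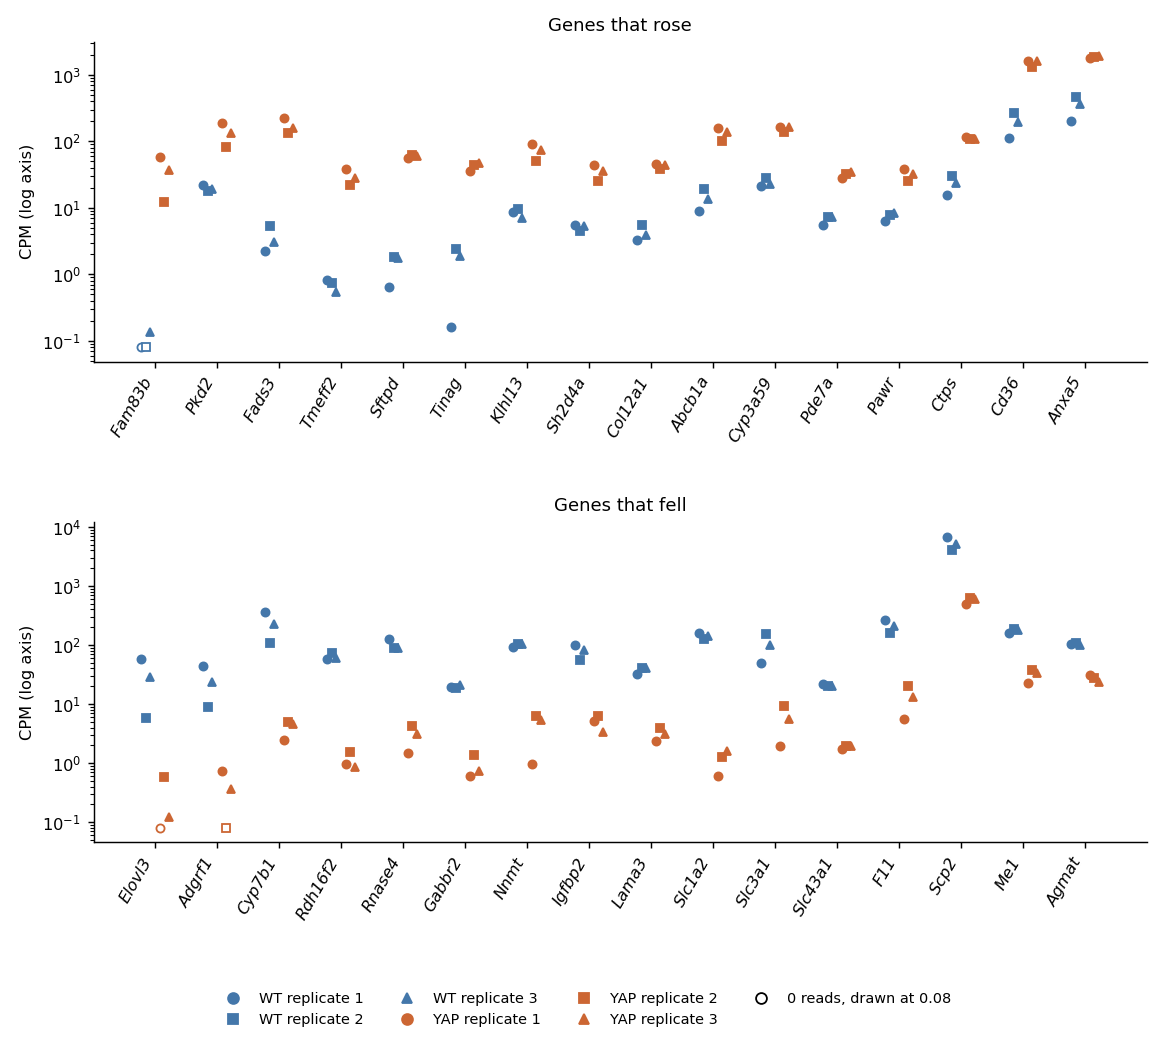
Level of 16 genes that rose (upper panel) and 16 that fell (lower panel), in CPM on a log axis, with each point 1 library (blue WT, orange YAP; shapes are replicates) and open points libraries with 0 reads. In none of the 32 genes do the groups overlap, and for Elovl3, Adgrf1 and Cyp7b1 WT replicate 1 was highest and WT replicate 2 lowest.

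Genes were grouped into 55 lists of liver and cell programmes, of which 52 had at least 15 tested members. The share of members that passed in each direction differed widely between lists. Sterol synthesis, proteasome, amino acid breakdown, fatty acid oxidation and conjugation enzymes had the highest shares of falls. Keratins and desmosomes, cell junctions, cilia, integrins, extracellular matrix and DNA replication had the highest shares of rises. Across all genes tested 7.44% rose and 10% fell.

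**Figure D2:**
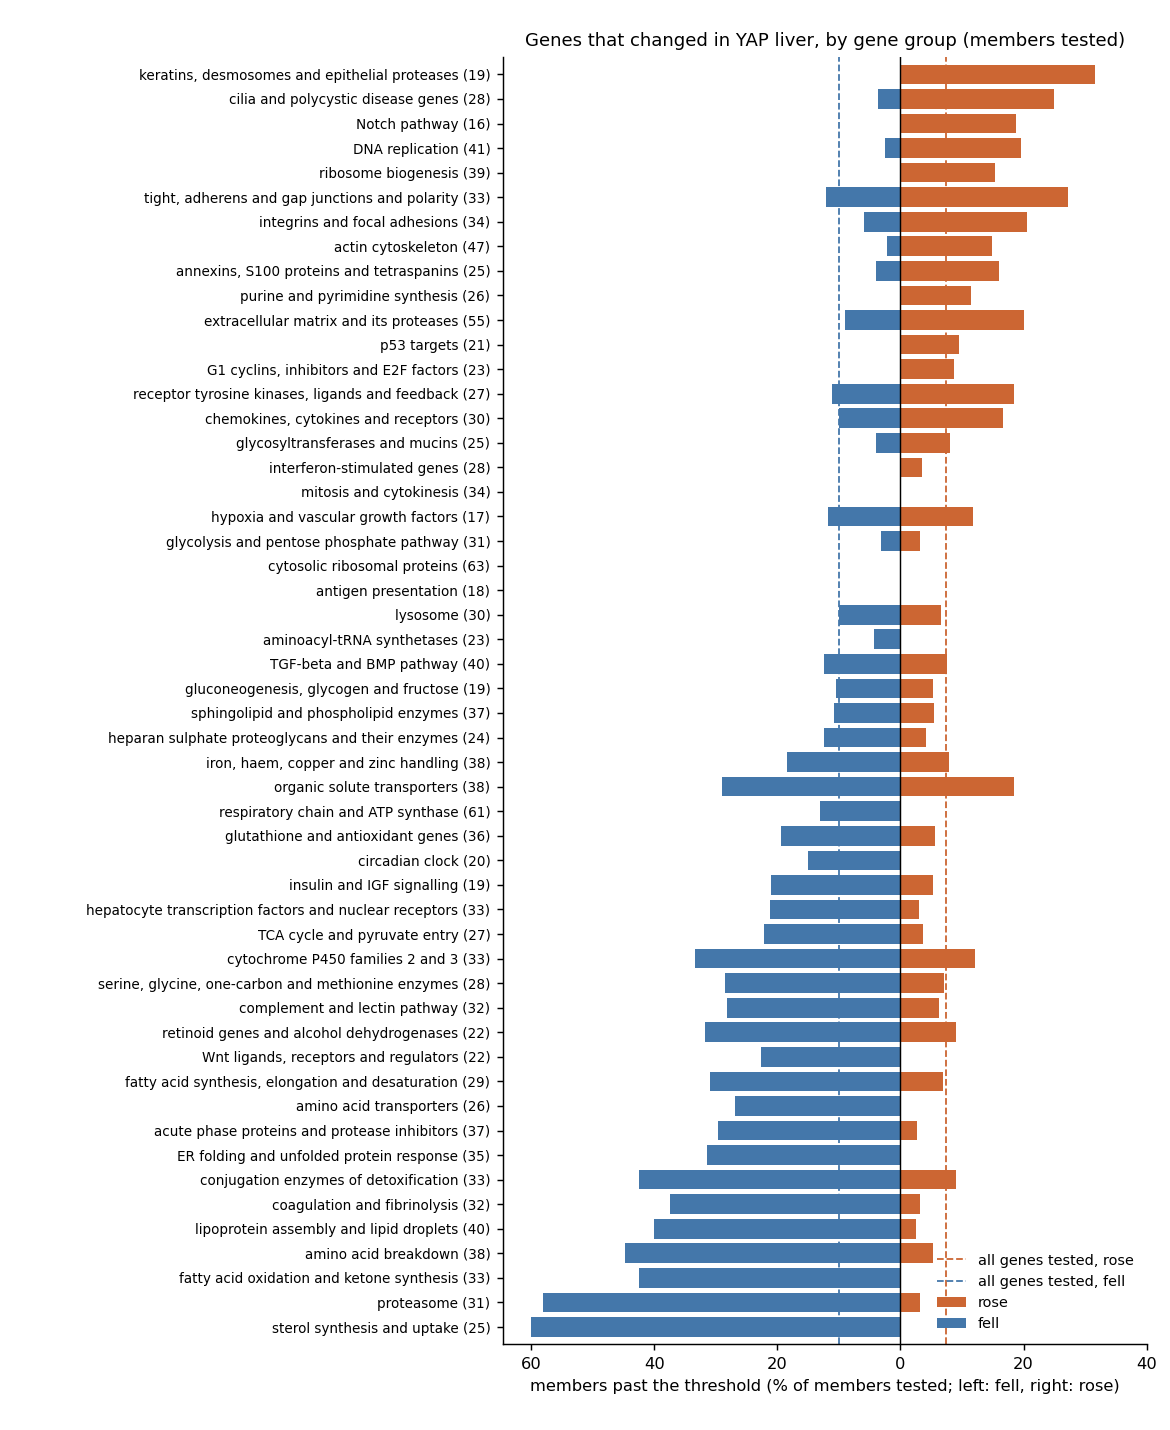
Share of tested members (number in brackets) that rose (orange, to the right) or fell (blue, to the left) in each of 52 gene lists, in percent of the members tested. Dashed lines give the shares over all genes tested, 7.44% for rises and 10% for falls; sterol synthesis and uptake has the highest share of falls, 15 of 25.

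Most genes of cholesterol synthesis were lower in YAP. 15 of 25 tested members fell (11 of them stable, 8 in the test without replicate 3) and 0 rose by edgeR's quasi-likelihood test (1 at an unadjusted p under 0.05 and 1 by DESeq2), and the median log2 fold change was -0.87. Scaled by library size alone, 13 fell. Msmo1, a sterol methyl oxidase of the late pathway, had 171, 157 and 159 CPM in WT and 40.3, 36.4 and 39 CPM in YAP (log2 fold change -2.07, SE 0.14, adjusted p = 0.000216). Cyp51, the lanosterol demethylase, had 224, 226 and 222 CPM in WT and 90.6, 74.9 and 85.4 CPM in YAP (log2 fold change -1.42, SE 0.11, adjusted p = 0.00024). In both genes the libraries of a group lay within a narrow range and the groups were far apart. Dhcr7, which makes cholesterol in the last step of 1 branch, fell by 1.41 on the log2 scale (SE 0.16), and Insig2, an anchor of the sterol sensor in the endoplasmic reticulum, was 2.82-fold lower (adjusted p = 0.000578). Members beyond these 4 were chosen after their values were seen. Hmgcs1, at the entry of the pathway, fell by 1.78 (SE 0.22, adjusted p = 0.00124), and Nsdhl, Tm7sf2, Sc5d, Ebp and Hsd17b7 of the late steps fell by 0.75 to 1.97. Srebf2, the transcription factor of the pathway, had a log2 fold change of 0.03 (SE 0.25, adjusted p = 0.955), and its escort protein Scap fell by 0.98 (adjusted p = 0.00694). Ebp, Hsd17b7 and Scap did not pass without replicate 3 (DESeq2 adjusted p = 0.0544 to 0.11).

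**Figure D3:**
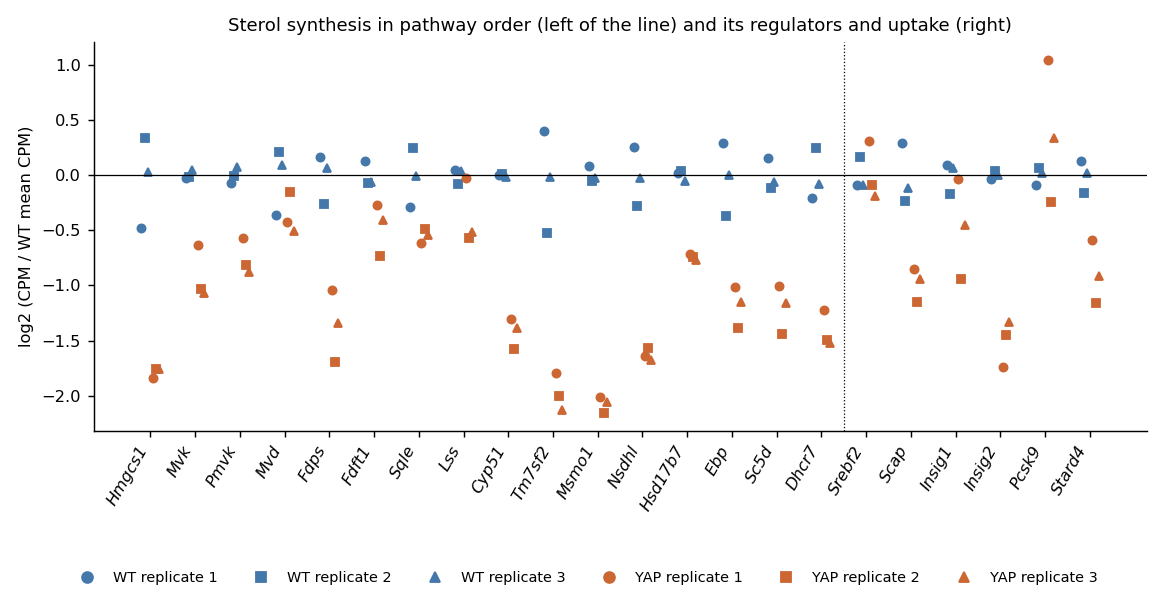
Level of tested sterol genes in each library, as the log2 ratio of CPM to the WT mean, in pathway order with regulators and uptake genes right of the dotted line (blue WT, orange YAP; shapes are replicates). All YAP libraries lie below all WT libraries at Msmo1, Cyp51, Dhcr7 and Insig2, and among them at Srebf2.

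Several genes that lengthen and desaturate fatty acids fell, and Fads3 rose. 9 of 29 tested members fell (5 of them stable, 7 in the test without replicate 3), and 2 rose. Elovl5, an elongase of polyunsaturated fatty acids, had 219.9, 173 and 182 CPM in WT and 56.3, 53.5 and 56.7 CPM in YAP (log2 fold change -1.79, SE 0.13, adjusted p = 0.000225). Me1, the malic enzyme that supplies NADPH, had 162, 189 and 178 CPM in WT and 22.7, 38.1 and 33.9 CPM in YAP (log2 fold change -2.48, SE 0.37, adjusted p = 0.00358). Elovl2 and Fads2, of the same polyunsaturated pathway, fell by 1.54 and 2.03 on the log2 scale. Elovl3, an elongase of very long chains, fell by 6.92, from WT levels that ranged from 5.69 to 59.0 CPM. Fads3, a desaturase relative, went the other way, with 2.28, 5.39 and 3.11 CPM in WT and 224, 133 and 157 CPM in YAP (log2 fold change 5.56, SE 0.62, adjusted p = 0.001003). In lipoprotein assembly and lipid droplets 16 of 40 tested members fell (7 of them stable, 8 in the test without replicate 3), and 1 rose. Fabp1, the abundant fatty acid binding protein, had 9396, 3702 and 6003 CPM in WT and 649, 505 and 583 CPM in YAP (log2 fold change -3.46, SE 0.56, adjusted p = 0.00469), and Apoa4, Apoc4 and Apom, apolipoproteins, fell by 3.75, 1.40 and 1.09. Cd36, a fatty acid receptor that macrophages and endothelium also express, was the one stable rise of the list, with 112, 268 and 195 CPM in WT and 1614, 1298 and 1589.5 CPM in YAP (log2 fold change 2.97, SE 0.31, adjusted p = 0.000626).

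Genes of fatty acid oxidation and ketone synthesis fell in part: 14 of 33 tested members fell (4 of them stable, 3 in the test without replicate 3). Scp2, a carrier and thiolase of peroxisomes, had 6843, 3986 and 5187 CPM in WT and 493, 622 and 606 CPM in YAP (log2 fold change -3.22, SE 0.39, adjusted p = 0.0013). Crot, the peroxisomal carnitine octanoyltransferase, had 1375, 1345 and 1322 CPM in WT and 512, 466 and 534 CPM in YAP (log2 fold change -1.42, SE 0.16, adjusted p = 0.000891). Bdh1, which makes the ketone body 3-hydroxybutyrate, fell by 1.60 (SE 0.13), and Slc25a20, the carnitine carrier of mitochondria, fell by 0.76 (SE 0.12, adjusted p = 0.00456), which did not pass without replicate 3 (DESeq2 adjusted p = 0.113). Among enzymes of complex lipids, Enpp2, which encodes autotaxin, had 305, 221 and 253 CPM in WT and 40.8, 64.2 and 54.5 CPM in YAP (log2 fold change -2.29, SE 0.20, adjusted p = 0.000324). The ceramide synthase gene Cers6 rose by 1.40 (SE 0.23), and Etnk2, an ethanolamine kinase, fell by 1.62 (SE 0.31). Of 37 tested enzymes of complex lipids 2 rose and 4 fell (5.41% and 10.8%), close to the 7.44% and 10% of all genes tested. Of 19 tested genes of gluconeogenesis, glycogen and fructose 1 rose and 2 fell (5.26% and 10.5%), also close to those shares. Gys2, the liver glycogen synthase, had 787, 429 and 569.5 CPM in WT and 197, 162 and 181 CPM in YAP (log2 fold change -1.72, SE 0.28, adjusted p = 0.00456).

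Amino acid breakdown was lower across many enzymes. 17 of 38 tested members fell (9 of them stable, 10 in the test without replicate 3), and 2 rose. Without the 7 genes that also mark liver zones, 12 of 31 fell. Oat, ornithine aminotransferase, had 1313, 584 and 898 CPM in WT and 24.3, 46.1 and 35.5 CPM in YAP (log2 fold change -4.72, SE 0.61, adjusted p = 0.0021). Prodh2, a hydroxyproline dehydrogenase, had 186, 132 and 162 CPM in WT and 37.9, 37.6 and 26.6 CPM in YAP (log2 fold change -2.23, SE 0.18, adjusted p = 0.000284). Got1, cytosolic aspartate aminotransferase, and Sds, serine dehydratase, fell by 1.97 and 2.16. Of 26 tested amino acid transporters 7 fell (4 falls stable, 4 in the test without replicate 3). Slc3a1, the heavy chain of a cystine carrier, had 49.9, 152 and 101 CPM in WT and 1.96, 9.42 and 5.59 CPM in YAP (log2 fold change -4.15, SE 0.62, adjusted p = 0.00363). Slc43a1, which carries large neutral amino acids, had 22.3, 20.4 and 19.99 CPM in WT and 1.72, 1.98 and 1.95 CPM in YAP (log2 fold change -3.46, SE 0.27, adjusted p = 0.00024), and Slc16a10, an aromatic amino acid carrier, fell by 1.85. WT libraries differed about 3-fold for Slc3a1 and hardly for Slc43a1. In methionine metabolism Gnmt, the main consumer of S-adenosylmethionine in liver, and Cth, which makes cysteine, fell by 2.30 and 1.47, while Mat2a, the methionine adenosyltransferase found mostly outside the adult liver, rose by 0.73 (SE 0.12, adjusted p = 0.00502) and did not pass without replicate 3 (DESeq2 adjusted p = 0.115).

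Most genes of the citric acid cycle were lower in YAP, and fewer passed. Of 27 tested members 6 fell (4 stable, 2 in the test without replicate 3) and 1 rose. In the fit of the 6 libraries compared 17 fell, against 1376 of all 10655 genes tested there. In 21 members all YAP libraries were below all WT libraries, which was so for 22.8% of all genes tested. Cs, citrate synthase, had 116, 149 and 137 CPM in WT and 60.2, 72 and 65.3 CPM in YAP (log2 fold change -1.03, SE 0.15, adjusted p = 0.00322), and Fh1, fumarase, fell by 1.29 (SE 0.20). Idh2, the mitochondrial isocitrate dehydrogenase that uses NADP, was the member that rose, with 135, 146 and 129.95 CPM in WT and 524, 252 and 330.2 CPM in YAP (log2 fold change 1.43, SE 0.27, adjusted p = 0.00864). Genes of the respiratory chain had a median of -0.51, and 8 of 61 fell, none of them stable. The number depended on the fit: by library size alone 3 fell, with a median of -0.18, and in the fit of the 6 libraries 25 fell. Over all genes tested these fits gave falls in 613 of 10897 and 1376 of 10655.

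Detoxification genes fell at a higher share than all genes tested, and a few rose. Of the P450 families 2 and 3, 11 of 33 tested members fell (33.3%, 5 of them stable, 6 in the test without replicate 3) and 4 rose (12.1%). Of the conjugation enzymes 14 of 33 tested members fell (42.4%, 5 of them stable, 8 in the test without replicate 3) and 3 rose (9.09%). Over all genes tested 10% fell and 7.44% rose, which is close to the share of rises among conjugation enzymes. Cyp3a59 had 21, 28.3 and 22.6 CPM in WT and 163, 139.6 and 165 CPM in YAP (log2 fold change 2.70, SE 0.16, adjusted p = 0.000216), the smallest p of any stable rise. Sult1a1, a phenol sulphotransferase, had 315, 341 and 330.3 CPM in WT and 1709, 710.3 and 1248 CPM in YAP (log2 fold change 1.89, SE 0.28, adjusted p = 0.00319). On the other side, Nnmt, nicotinamide N-methyltransferase, had 91.5, 105 and 103 CPM in WT and 0.982, 6.28 and 5.35 CPM in YAP (log2 fold change -4.56, SE 0.46, adjusted p = 0.000655), Cyp2d40 fell by 4.35, and the abundant Ugt2b5 and Cyp2c67 fell by 1.51 and 2.41. Of 36 genes of glutathione and antioxidant defence 7 fell (4 stable, 3 without replicate 3), among them Gstp1, with 2880.3, 2315 and 2444 CPM in WT and 247, 902 and 587 CPM in YAP (log2 fold change -2.14, SE 0.40, adjusted p = 0.00782), and 2 rose.

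Transporters of organic solutes were split: 7 of 38 rose and 11 fell (4 and 6 stable, 4 and 7 without replicate 3). These are 18.42% and 28.95%, against 7.44% and 10% of all genes tested. Slc47a1, which exports cations into bile, fell by 2.25 (SE 0.21), and Abcb11, the bile salt export pump, had 1505, 986 and 1208 CPM in WT and 393, 297 and 377 CPM in YAP (log2 fold change -1.79, SE 0.29, adjusted p = 0.00427). Slc22a7, an anion carrier, fell by 4.35, from WT levels between 23.7 and 88.1 CPM. Slc16a1, which carries lactate and ketone bodies, was among the rises at 1.08 (SE 0.20, adjusted p = 0.00843; DESeq2 adjusted p = 0.135 without replicate 3).

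Most genes known to be higher in male than in female mouse liver fell. The sex of the mice is not in the labels. The summed level of Xist and the 4 Y-linked genes given above was 444 to 460.3 CPM in WT and 362 to 396 CPM in YAP and did not overlap, while 0 of the 4 genes tested passed by edgeR's quasi-likelihood test (0 higher and 1 lower in YAP at an unadjusted p under 0.05, 0 higher and 1 lower in YAP by DESeq2). Of 22 tested male-biased genes 19 fell and 0 rose by edgeR's quasi-likelihood test (0 at an unadjusted p under 0.05 and 0 by DESeq2); 14 falls were stable, 18 fell without replicate 3, and 18 fell with scaling by library size alone. Their median log2 fold change was -3.60. Of 18 female-biased genes 5 rose (4 stable, 4 without replicate 3) and 3 fell, none of them stable. Cyp4a12a, an arachidonic acid hydroxylase, had 497, 325 and 394 CPM in WT and 56, 92.1 and 77.3 CPM in YAP (log2 fold change -2.43, SE 0.26, adjusted p = 0.000767), and Serpina1e, a protease inhibitor gene with near-identical copies, fell by 5.62. The repressor gene Cux2, known for its female bias, had 0.65, 0.2996 and 0.54 CPM in WT and 15.7, 4.88 and 8.03 CPM in YAP (log2 fold change 4.22, SE 0.56, adjusted p = 0.00198). Fmo2, a flavin monooxygenase, had 17.4, 12.6 and 14.9 CPM in WT and 107, 48.1 and 73.9 CPM in YAP, and Abcb1a, given above, is on the same list. The libraries of a group were uneven for these genes. The summed level of the male-biased genes was 92049, 58717 and 72803 CPM in WT and 16616, 31203 and 27017 CPM in YAP, so WT_1 was highest and YAP_1 lowest, and the groups did not overlap (exact two-sided permutation test, p = 0.1, the smallest that 3 against 3 libraries allow). Cyp2a4, a female-biased gene chosen after its values were seen, had 0.488, 495 and 286 CPM in WT and 1.6, 210.4 and 118 CPM in YAP, with replicate 1 lowest and replicate 2 highest in both groups, and did not pass.

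Genes of secreted plasma proteins were lower in part. In coagulation 12 of 32 tested members fell (5 of them stable, 5 in the test without replicate 3), and 1 rose. Cpb2, which slows the lysis of clots, had 1052, 1000.4 and 1027 CPM in WT and 238, 277 and 276 CPM in YAP (log2 fold change -1.96, SE 0.17, adjusted p = 0.000324). F11, coagulation factor XI, had 265, 159 and 207 CPM in WT and 5.65, 20.5 and 13.4 CPM in YAP (log2 fold change -3.99, SE 0.51, adjusted p = 0.00198), F7, factor VII, fell by 1.84, and Serpinc1, antithrombin, fell by 1.08. In complement 9 of 32 tested members fell (7 of them stable, 6 in the test without replicate 3), and 2 rose, with 8 and 4 by library size alone. Hc, complement component C5, had 3597, 4105 and 3894 CPM in WT and 1479.6, 1335 and 1466 CPM in YAP (log2 fold change -1.44, SE 0.17, adjusted p = 0.00111), and C8g and C6, of the membrane attack complex, fell by 2.25 and 1.65, while Fcna, ficolin A, a lectin that macrophages make, rose with 89.9, 85.1 and 101 CPM in WT and 379.8, 282 and 312 CPM in YAP (log2 fold change 1.82, SE 0.31, adjusted p = 0.00574). Among acute phase proteins and protease inhibitors 11 of 37 tested members fell (3 of them stable, 6 in the test without replicate 3). Ambp, the precursor of alpha-1-microglobulin, fell by 1.19 and Saa4 fell by 2.34. Ttr, the carrier of thyroxine and retinol binding protein, had 6178, 4832 and 5277 CPM in WT and 998, 1226 and 1108 CPM in YAP (log2 fold change -2.29, SE 0.20, adjusted p = 0.000324).

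Metal handling had 2 prominent plasma proteins that rose. Cp, ceruloplasmin, had 2234, 2137 and 2187 CPM in WT and 5549, 4504 and 5579 CPM in YAP (log2 fold change 1.25, SE 0.20, adjusted p = 0.00417). Trf, transferrin, had 4536, 3848 and 4129 CPM in WT and 11758, 7978 and 9998 CPM in YAP (log2 fold change 1.25, SE 0.23, adjusted p = 0.00758). Atp7b, the copper exporter that loads ceruloplasmin, rose with them by 1.04 (SE 0.16, adjusted p = 0.00362). These 3 were the members of the list that rose after TMM, of 38 tested (7.9%), which is close to the 7.44% of all genes tested. All 3 were stable and rose in the test without replicate 3. Another 7 members fell (18.4%, against 10% of all genes tested), 3 of them stable. Among the falls were the iron regulatory protein gene Ireb2 by 0.86 and Cpox of haem synthesis by 1.43. With library size alone the balance turned, and 8 members rose and 3 fell, against 1932 and 613 of all 10897 genes tested.

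Several retinol dehydrogenase genes fell, and a gene of retinoic acid degradation rose. Of 22 tested 7 fell (5 stable, 4 without replicate 3) and 2 rose. Adh4, an alcohol dehydrogenase that also oxidises retinol, had 303, 341 and 324 CPM in WT and 64.3, 80.9 and 77.3 CPM in YAP (log2 fold change -2.12, SE 0.20, adjusted p = 0.000456), and Rdh9, Rdh16 and Rdh11, retinol dehydrogenase genes, fell by 3.95, 1.89 and 1.04. The members that rose were Cyp26a1, which degrades retinoic acid, with 5.36, 1.35 and 2.16 CPM in WT and 25.3, 17.8 and 20.1 CPM in YAP (log2 fold change 2.84, SE 0.42, adjusted p = 0.00343), and Rarb, a retinoic acid receptor, by 1.35 (SE 0.27, adjusted p = 0.0108; DESeq2 adjusted p = 0.171 without replicate 3).

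Most transcription factors of hepatocytes did not pass. Of 33 tested 7 fell (5 stable, 2 without replicate 3) and 1 rose. Nr1i3, the xenobiotic receptor CAR, had 152, 51.7 and 88.1 CPM in WT and 3.93, 10.8 and 6.08 CPM in YAP (log2 fold change -3.80, SE 0.71, adjusted p = 0.00896). Creb3l3, a membrane-bound factor of lipid metabolism, had 348, 281 and 307 CPM in WT and 125, 138 and 123 CPM in YAP (log2 fold change -1.28, SE 0.17, adjusted p = 0.0019). Nr1i2, the xenobiotic receptor PXR, fell by 0.75 (SE 0.11), and Nr0b2, the corepressor SHP, fell by 2.70 from at most 4.23 CPM. Of 20 clock genes the repressors Ciart and Bhlhe41 and the activator Rora fell, by 1.90, 3.43 and 0.68, and 0 rose by edgeR's quasi-likelihood test (1 at an unadjusted p under 0.05 and 1 by DESeq2). All 3 falls were stable. Bhlhe41 and Rora, like Nr1i2 and Nr0b2, did not pass without replicate 3 (DESeq2 adjusted p = 0.105 to 0.328). The growth hormone receptor Ghr had 845, 436 and 594 CPM in WT and 201, 171 and 194 CPM in YAP (log2 fold change -1.73, SE 0.29, adjusted p = 0.00524).

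Several ligands of growth factor and Notch signalling rose from low levels. Tgfa, a ligand of the EGF receptor, had 4.23, 5.69 and 5.67 CPM in WT and 19.8, 16.7 and 15.7 CPM in YAP (log2 fold change 1.74, SE 0.20, adjusted p = 0.000891). Nrg1, a ligand of ERBB receptors, had 0.163, 1.95 and 1.49 CPM in WT and 13.6, 10.5 and 13.7 CPM in YAP (log2 fold change 3.35, SE 0.58, adjusted p = 0.00604). Fgfr2, a fibroblast growth factor receptor, rose by 0.87 and the feedback inhibitor Lrig1 fell by 0.67. Of 27 members of the receptor tyrosine kinase list 5 rose (3 stable, 3 without replicate 3) and 3 fell. Jag1, a Notch ligand that marks bile duct development, had 8.78, 13.3 and 8.24 CPM in WT and 38.1, 30.8 and 32.2 CPM in YAP (log2 fold change 1.74, SE 0.19, adjusted p = 0.000838), and 3 of 16 Notch genes rose (1 stable, 1 without replicate 3). Bmp4, a bone morphogenetic protein, rose from 0.325, 1.05 and 0.135 CPM in WT to 4.79, 2.67 and 3.53 CPM in YAP (adjusted p = 0.00949), and the activin subunit Inhbe fell by 2.20. Fgfr2, Lrig1, Bmp4 and Inhbe did not pass without replicate 3 (DESeq2 adjusted p = 0.078 to 0.266), and Lrig1 did not pass with scaling by library size alone (adjusted p = 0.062). In the TGF-beta and BMP list as a whole 3 of 40 rose and 5 fell after TMM, which is close to the background, and none passed without replicate 3. With library size alone 9 rose and 1 fell, against 1932 and 613 of all 10897 genes tested. In the Wnt list 5 of 22 fell after TMM (1 stable) and 1 with library size alone, among them Notum, which inactivates Wnt proteins and also marks the pericentral zone, by 4.24.

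Several epithelial structure genes rose. Of 19 keratin, desmosome and epithelial protease genes 6 rose (3 stable, 2 without replicate 3). Beside Krt4 these included the desmosome genes Dsp, with 54.6, 55.1 and 52.5 CPM in WT and 102, 96.9 and 96.2 CPM in YAP (log2 fold change 0.86, SE 0.12, adjusted p = 0.00241), and Pkp4, which rose by 0.99. Of 33 junction and polarity genes 9 rose (5 stable, 1 without replicate 3) and 4 fell. The polarity genes Prkci, Patj and Mpdz rose by 0.89, 0.98 and 1.57. Cdh2, the N-cadherin of hepatocytes, had 157, 135 and 135 CPM in WT and 88.5, 73.6 and 81 CPM in YAP (log2 fold change -0.81, SE 0.12, adjusted p = 0.00354) and Cldn14, a claudin, fell by 2.80. Dsp, Prkci, Patj, Cdh2 and Cldn14 did not pass without replicate 3 (DESeq2 adjusted p = 0.0528 to 0.0939). Among cilia and polycystic disease genes 7 of 28 tested members rose (5 of them stable, 4 in the test without replicate 3) and 1 fell. Pkd2, polycystin 2, had 21.8, 17.7 and 19.5 CPM in WT and 188, 80.7 and 135 CPM in YAP (log2 fold change 2.78, SE 0.29, adjusted p = 0.000745). Bicc1, an RNA binding protein of the same disease group, had 6.34, 10.2 and 7.7 CPM in WT and 111, 69.4 and 76.4 CPM in YAP (log2 fold change 3.40, SE 0.54, adjusted p = 0.00434), Pkhd1, fibrocystin, rose by 2.35 and Nek8, a ciliary kinase, by 1.63.

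Cytoskeleton and adhesion genes leaned upward, to an extent that depended on the scaling. Of 47 actin cytoskeleton genes 7 rose after TMM and 16 with scaling by library size alone, with 2 stable and 3 without replicate 3. Of 34 integrin and focal adhesion genes the numbers were 7 and 15, with 1 stable and 1 without replicate 3. Of all 10897 genes tested 811 rose after TMM and 1932 with library size alone. Myh14, a non-muscle myosin heavy chain, had 16.3, 14.7 and 14.5 CPM in WT and 86.1, 60.1 and 56.9 CPM in YAP (log2 fold change 2.16, SE 0.26, adjusted p = 0.00124). Myl12a, a myosin light chain, had 14.3, 27.7 and 22.2 CPM in WT and 80.5, 70.2 and 72.4 CPM in YAP (log2 fold change 1.79, SE 0.29, adjusted p = 0.00487). Anxa5, an annexin that binds exposed phosphatidylserine, had 203, 462 and 366 CPM in WT and 1806, 1817 and 1903 CPM in YAP (log2 fold change 2.42, SE 0.37, adjusted p = 0.00351). Its relative Anxa4 and the tetraspanin-like Tm4sf4 rose by 1.15 and 2.22.

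Among extracellular matrix genes the share of rises was above that of all genes after TMM, and the share of falls was not. Of 55 tested 11 rose (20%, against 7.44%) and 5 fell (9.09%, against 10%). Stable were 3 and 2, and 4 and 2 passed without replicate 3. With library size alone 11 rose and 1 fell, against 1932 and 613 of all 10897 genes tested. Col12a1, a collagen of fibril surfaces, had 3.25, 5.54 and 3.92 CPM in WT and 46.2, 38.1 and 43.9 CPM in YAP (log2 fold change 3.33, SE 0.30, adjusted p = 0.000369). Spp1, osteopontin, had 44.2, 97.8 and 71.2 CPM in WT and 1146, 950.2 and 1073 CPM in YAP (log2 fold change 3.89, SE 0.51, adjusted p = 0.0022). Col4a3, a basement membrane collagen, had 3.09, 3.89 and 2.84 CPM in WT and 65.6, 11.5 and 37.6 CPM in YAP, with YAP_2 well below the other YAP libraries and above all WT libraries. P4ha2, a collagen prolyl hydroxylase, rose by 2.09 (SE 0.20), whereas Col14a1 fell by 0.91 and Lama3 fell as given above. Col14a1 did not pass with scaling by library size alone (edgeR quasi-likelihood adjusted p = 0.0567). Of 24 tested heparan sulphate proteoglycans and their enzymes 1 rose and 3 fell, which is close to the shares over all genes tested. The glypicans parted: Gpc3, an oncofetal surface proteoglycan, had 0.65, 8.99 and 4.05 CPM in WT and 421, 235 and 308 CPM in YAP (log2 fold change 6.12, SE 1.09, adjusted p = 0.00732), and Gpc1 fell by 2.36 (adjusted p = 0.0115; DESeq2 adjusted p = 0.0662 without replicate 3).

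DNA replication genes leaned upward while mitosis genes did not pass. Of 41 replication genes 8 rose and 1 fell (4 rises stable, 1 without replicate 3), with a median of 1.08. With scaling by library size alone 19 rose, against 1932 of all 10897 genes tested. Pola1, a subunit of DNA polymerase alpha, had 24.4, 34.1 and 30.5 CPM in WT and 85.4, 60.7 and 77.6 CPM in YAP (log2 fold change 1.33, SE 0.21, adjusted p = 0.00376). Pcna, the sliding clamp, had 28.9, 43 and 35.1 CPM in WT and 89.98, 58.3 and 72.4 CPM in YAP (log2 fold change 1.04, SE 0.19, adjusted p = 0.00664), and Prim2 and Rpa1 rose by 1.08 and 0.60. Pcna, Prim2 and Rpa1 did not pass without replicate 3 (DESeq2 adjusted p = 0.11 to 0.258). Of 34 mitosis and cytokinesis genes 0 passed by edgeR's quasi-likelihood test, with 3 higher and 0 lower in YAP at an unadjusted p under 0.05 and 3 higher and 0 lower in YAP by DESeq2, although their median was 0.73. In nucleotide synthesis 3 of 26 rose (2 stable, 2 without replicate 3). Ctps, which makes CTP, had 15.4, 30.1 and 23.5 CPM in WT and 117, 108 and 107 CPM in YAP (log2 fold change 2.27, SE 0.27, adjusted p = 0.00131), and Uck2, a uridine-cytidine kinase, rose by 1.45 (SE 0.16).

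The calls among genes of ribosomes and protein turnover depended on the scaling. Of 39 ribosome biogenesis genes 6 rose after TMM and 18 with library size alone, and of 63 ribosomal protein genes 0 (8 higher and 0 lower in YAP at an unadjusted p under 0.05, 5 higher and 0 lower in YAP by DESeq2) and 32. Of all 10897 genes tested 811 rose after TMM and 1932 with library size alone, where 613 fell. Nop58, a nucleolar protein, rose by 0.92 (SE 0.17; DESeq2 adjusted p = 0.118 without replicate 3). Of 31 proteasome genes 18 fell after TMM, 3 of them stable, against 0 with library size alone and 0 without replicate 3; the stable falls were small, 0.59 to 0.61 for Psma5, Psmd12 and Psmd11, and with library size alone their adjusted p was 0.141, 0.0767 and 0.178. Of 35 genes of protein folding in the endoplasmic reticulum 11 fell after TMM, 3 of them stable, against 6 with library size alone and 1 without replicate 3. Xbp1, a transcription factor of the unfolded protein response, had 143, 123 and 134 CPM in WT and 65.1, 63.2 and 63.6 CPM in YAP (log2 fold change -1.06, SE 0.16, adjusted p = 0.00367), and Edem1 and Pdia6 fell by 0.76 and 0.72. Xbp1 and Edem1 did not pass without replicate 3 (DESeq2 adjusted p = 0.0557 to 0.0929), nor did the 3 proteasome genes (DESeq2 adjusted p = 0.15 to 0.215).

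Immune genes changed in part. Of 30 tested chemokine, cytokine and receptor genes 5 rose (2 stable, 3 without replicate 3) and 3 fell (1 stable, 1 without replicate 3), against 7.44% and 10% of all genes tested. Ccl9, a chemokine, had 61.6, 53.9 and 56.5 CPM in WT and 192, 146 and 183 CPM in YAP (log2 fold change 1.60, SE 0.14, adjusted p = 0.000324). Il1b, interleukin 1 beta, had 2.11, 5.99 and 4.998 CPM in WT and 25.3, 20.8 and 21.4 CPM in YAP (log2 fold change 2.35, SE 0.34, adjusted p = 0.00308), and Cxcl12 fell by 0.92 (DESeq2 adjusted p = 0.13 without replicate 3). Of 18 antigen presentation genes 0 passed by edgeR's quasi-likelihood test (2 higher and 1 lower in YAP at an unadjusted p under 0.05, 1 higher and 2 lower in YAP by DESeq2), and of 28 interferon-stimulated genes 1 passed, Ifit2, which rose by 2.52. In the same interferon list of 28, 10 higher and 0 lower in YAP had an unadjusted p under 0.05, against 3752 of 10897 genes tested in either direction. By DESeq2 8 rose, against 1165 of 10897, and in the fit of the 6 libraries compared 9 rose, against 1264 of 10655. In 11 members all YAP libraries were above all WT libraries, which was so for 21.5% of all genes tested.

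Markers of some other liver cells moved with the groups. The summed T and NK cell, dendritic cell, platelet and mesothelial markers overlapped between the groups. The summed level of 20 Kupffer cell and macrophage markers was 1067 to 1811 CPM in WT and 3570 to 4152 CPM in YAP, with 9 of 20 members above the threshold, none stable and none in the test without replicate 3. The sum of 20 bile duct markers was 297 to 438 CPM in WT and 1494 to 1725 CPM in YAP. Without Spp1, which gave most of it in YAP, the sum was 253 to 340 CPM against 544 to 578 CPM (added after values were seen). Of the bile duct markers Cldn4 was at 0 reads in all 6 libraries, and of the 4 members that rose Pkhd1, Bicc1 and Spp1 were stable. The neutrophil sum was 2.11 to 7.94 CPM against 19.3 to 22.4 CPM, with Ly6g at 0, and 3 of 4 tested members rose, none stable. The B and plasma cell sum was 5.69 to 13.6 CPM in WT and 13.7 to 14.9 CPM in YAP, so the groups were barely apart. The red cell sum was 249, 28.2 and 126 CPM in WT and 21.7 to 23.7 CPM in YAP, so WT_2 was close to the YAP libraries. Of its 2 tested members 1 rose and 1 fell, and neither was stable. The 4 haemoglobin genes Hbb-bs, Hbb-bt, Hba-a1 and Hba-a2 had 0 unique reads in all 6 libraries, which does not show that they are absent. The stellate cell and fibroblast sum was 1105 to 1877 CPM in WT and 614 to 1219 CPM in YAP and overlapped, and Reln, with 294, 412 and 352 CPM in WT and 91.8, 126 and 108 CPM in YAP (log2 fold change -1.70, SE 0.19, adjusted p = 0.000891), fell while the actin gene Acta2 rose by 1.42 from at most 4.06 CPM (DESeq2 adjusted p = 0.197 without replicate 3). The endothelial sum was 1687 to 1713 CPM in WT and 1429 to 1641 CPM in YAP. Of its 21 tested members 2 rose and 4 fell (2 falls stable). The sum of 14 hepatocyte markers overlapped, at 199221 to 213673 CPM in WT and 169632 to 244137 CPM in YAP, and these markers, present at high levels in each library, accord with the liver label. Of its members 4 fell (3 stable, 3 without replicate 3) and 0 rose by edgeR's quasi-likelihood test (0 at an unadjusted p under 0.05 and 0 by DESeq2). In 9 of the 14 all YAP libraries were below all WT libraries, which was so for 22.8% of all genes tested, and the median log2 fold change was -0.58. The sums that did not overlap had p = 0.1 by the exact two-sided permutation test, the smallest possible here. Several genes described above, among them Spp1, Cd36, Fcna, Ccl9, Il1b and those of matrix and cilia, are also made by these cells, and the part of such cells in the results was not tested.

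**Figure D4:**
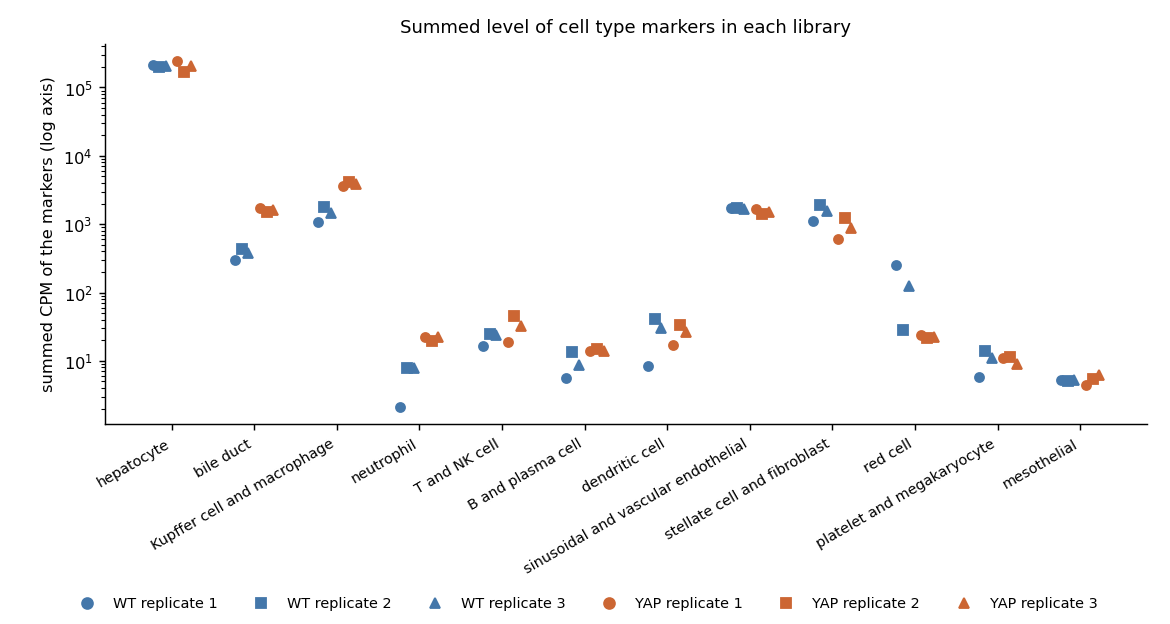
Summed CPM of the marker genes of 12 cell types in each library, on a log axis (blue WT, orange YAP; shapes are replicates). The bile duct, macrophage and neutrophil sums are higher in each YAP library than in any WT library and the red cell sum is lower, while the hepatocyte and stellate cell sums overlap.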

How the data were processed

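Liver RNA with an integrity number (RIN) of at least 8 was depleted of ribosomal RNA and made into stranded TruSeq libraries, per the labels' protocols. STAR, featureCounts, edgeR, bcl2fastq and FastQC, with no versions, and the build mm10 are named in the submitters' processing notes. Which annotation STAR used is not stated there. The authors deposited 1 junction table of 9 columns per library, whose values are raw counts of reads, unique and multi-mapped, across each splice junction. Groups and replicate numbers were taken from the titles and genotype labels.

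Column 7 (unique reads) was summed per gene over junctions marked as annotated in column 6 that match an intron of 1 gene of GENCODE M21 (GRCm38). A read across several junctions counts at each, so counts are not molecules, and 1344 of 22028 protein-coding genes have no intron and were not measured. Genes were tested with edgeR 4.0.16 (limma 3.58.1, R 4.3.3): filterByExpr, TMM, 1 robust quasi-likelihood fit of the 3 groups, the contrast YAP against WT, and Benjamini-Hochberg adjustment with a threshold of 0.05. The SE is the absolute log2 fold change divided by the square root of F. DESeq2 1.42.0 gave alternatives. The fit was also run on simulated data with independent libraries, which cannot check its errors to the extent that replicate 3 is not independent. Depth was 7174989 to 8729659 unique junction reads per library compared.

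The gene lists (55 of programmes, 12 of cell types, 3 of sex and 2 of YAP targets and zonation genes) and the rules were chosen with earlier results of these data known. Named genes are Yap1 and Kdm1a; up to 4 passing members per list and direction by smallest p, stable ones first; and the 15 stable rises and falls with the largest change (mean of at least 50 reads in the higher group) and with the smallest p, outside YAP targets, zonation genes, unnamed models and Mup genes. The text names a part of these and says where others were chosen after their values were seen. Some genes are not reported here. Same-numbered WT and YAP libraries were checked for pairing (correlations of their deviations 0.34, 0.30 and 0.07) and were not treated as paired. Alternatives changed the scaling, the filter, the test, the libraries fitted, the replicate block, the reads counted and the junctions used. Python 3.11.15 with pandas 2.3.3, numpy 2.4.6, scipy 1.17.1 and matplotlib 3.10.9 made the tables and figures.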

Additional observations from a re-analysis of the deposited data

How the results depend on the processing

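The counts of passing genes are set against 1901 in all, 811 that rose, 1090 that fell, and 485 and 535 that did so at least 2-fold. Leaving out 1 of the 9 libraries gave 748 (without WT_3) to 2729 (without YAP_Lsd1ko_2) genes in all, 276 to 1330 that rose, 446 to 1421 that fell, 208 to 786 that rose at least 2-fold and 328 to 601 that fell at least 2-fold. An arm then held 2 libraries, and the spread was pooled over the groups. With scaling by library size alone 2545 genes passed, of which 1932 rose and 613 fell, 820 and 349 of them at least 2-fold. With the 6 libraries of the comparison alone 2640 passed, 1264 rose and 1376 fell, and 736 and 548 did so at least 2-fold. With the junction with most reads of each gene in place of the sum, 1070 passed, 462 rose and 608 fell, and 351 and 402 did so at least 2-fold, where fewer genes, 8618, were tested. The cause of the other differences was not tested. DESeq2's size factors, no filter, a mean of at least 50 reads, unique plus multi-mapped reads, an overhang of at least 20 bases and DESeq2's own test gave 1682 to 2508.

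The same-numbered libraries were not shown to be pairs. Deviations of WT_1 correlated with those of YAP_1 at 0.34 and of YAP_2 at -0.32. Those of WT_2 correlated with YAP_2 at 0.30 and with YAP_1 at -0.31. These values are not independent, because each deviation is taken from the mean of its group. WT_3 deviated most like YAP_2 (correlation 0.16), but replicate 3 lies between the others, so its deviations say little about pairing. Whether the numbers pair animals was not tested. With the replicate block 1027 genes passed, of which 403 rose and 624 fell, 262 and 394 of them at least 2-fold. Each passing gene named in the report also passed with the block. With the junction with most reads alone, 11 of the 161 still tested did not pass, namely Acta2, Cs, Hsd17b7, Lrig1, Patj, Prim2, Prkci, Psmd11, Psmd12, Rarb and Rpa1, with adjusted p from 0.0703 to 0.488. The log2 fold change of Srebf2, which did not pass, was -0.0068 with the block and -0.14 to 0.12 when 1 library was left out.

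Leaving out replicate 3 in every group gave 0 genes by edgeR's quasi-likelihood test, in all, rising, falling and at least 2-fold in either direction, with 1476 at an unadjusted p under 0.05 and a smallest adjusted p of 0.112. On the same libraries DESeq2, added after the data were seen, passed 474, of which 184 rose and 290 fell, 177 and 277 of them at least 2-fold. All 1900 genes of the 1901 that were still tested kept their sign. The log2 fold changes of the stable genes moved by a median of 0.052. In each group replicate 3 lay close to a mix of the other libraries, so leaving it out could hardly move the group means. The kept signs and the small shift therefore do not test the calls. Junction reads limit weakly expressed genes most, and genes without an intron were not measured.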
